A study of Mus musculus with 39 samples.

Results

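The immediate early genes and feedback regulators described are the 10 genes *Fos*, *Fosb*, *Jun*, *Junb*, *Egr1*, *Atf3*, *Ier2*, *Ier3*, *Dusp1* and *Spry2*, out of 16535 named genes on the array. They were chosen by symbol with their measured levels in all 7 groups of arrays already known, so those levels are a description. No p-value for a difference between groups is given for them. Matching the transcript accessions of the scanner files to RefSeq genes gave 12 of the 41174 probes, with 2 probes each for *Ier2* and *Junb*. For these genes the brighter probe is used unless the second is named.

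Immediate early genes are switched on within minutes of a signal at the cell surface, from transcription factors that are already present, and many of their products are themselves transcription factors. FOS and JUN proteins pair to form AP-1, EGR1 binds GC-rich DNA, and a further set of induced proteins, among them DUSP1 and SPRY2, damps the MAP kinase pathway that switched the genes on. In the ovary, the surge of luteinizing hormone acts on cumulus cells through EGF-like growth factors and the same kinases, whereas the growing oocyte stores messenger RNA that is broken down after fertilization as the embryonic genome becomes active.

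RNA was measured on 39 single-colour 44 K mouse arrays, each hybridized with the material of 10 pooled oocytes or 2-cell embryos or of 500 cumulus cells after 2 rounds of amplification. Oocytes and cumulus cells came from superovulated (B6xDBA/2)F1 females aged 8 to 10 weeks, collected 15 h after hCG. By the study's methods the cumulus cells were dispersed with hyaluronidase, and the part of this step in their levels was not tested. The groups were unfertilized oocytes (OC, 7 arrays), embryos from in vitro fertilization (IVF, 6), untreated cumulus cell clones (TSA(–), 8), clones given the histone deacetylase inhibitor trichostatin A at 5 nM for 8 h from activation (TSA(+), 6), and cumulus cells (Cumulus, 4). A further pair of groups held clones injected at the pronuclear stage with mRNA of the transcription factor Spi-C at 1.0 or 0.1 mg/ml (Spi-C 1.0 and Spi-C 0.1, 4 arrays each, together called Spi-C NT). All embryos had been cultured for 24 h, and cumulus cells were both a group of their own and the nuclear donors of every cloned embryo. The samples are pools, so variation between single embryos was not measured.

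A level is the log2 of a probe's processed intensity minus the log2 of the 75th percentile of its array, so 0 is the brightness of the 75th percentile and a difference of 1 is a doubling. Levels rank groups within a probe and are not compared between probes. The scanner software also marks spots that are well above background. The share of probes so marked was lowest in OC, with a median of 57.4%, followed by Cumulus with 63.0%. Among the embryo groups its median ran only from 71.6% in Spi-C 0.1 to 73.2% in IVF. The 75th percentile itself differed widely, with a median of 392 intensity units for oocytes, 945 for cumulus cells and 1112 for IVF embryos, of 1372 and 1451 for treated and untreated clones, and of 2395 and 2572 for Spi-C 1.0 and Spi-C 0.1. The number of arrays limits the precision of every value.

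The OC, IVF, TSA(–) and TSA(+) arrays lay on 9 slides read on 5 days with scanner model G2505B and the older of 2 versions of the software. The Spi-C arrays lay on 2 other slides, each holding both concentrations, and the Cumulus arrays on 1 more, all read with model G2505C and the later version on days of their own. For Cumulus or Spi-C NT against OC, IVF or either TSA group, the group therefore cannot be told apart from the slide, the day, the scanner and the software version.

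Markers matched the labels of the oocytes, embryos and cumulus cells with 3 exceptions. The summed level of 8 oocyte markers (the log2 of the sum of their unlogged levels) had a median of 11.6 in OC and 9.27 in IVF, and between 8.60 and 9.12 in the cloned groups, against 0.45 in Cumulus, where 5 of the 8 were not well above background on any array. Such a sum follows the brightest probe of its list, here that of *Oosp1* in OC and every embryo group, and is compared between groups only. For 6 markers of the 2-cell embryo the median sum was 7.74 in IVF, 6.38 in TSA(–), 6.48 in TSA(+), 5.85 in Spi-C 1.0 and 5.69 in Spi-C 0.1, against 5.00 in OC and 3.64 in Cumulus.

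The first exception is the list of 11 cumulus and granulosa cell markers, whose median sum was as high in OC (8.17) as in Cumulus (8.17). The probe brightest in OC and the one brightest in Cumulus went opposite ways, *Cyp19a1* with a mean level of 8.11 in OC and 1.13 in Cumulus and *Cyp11a1* with −4.08 and 6.92, and 4 of the 11 were well above background on all OC arrays against 10 of 11 in Cumulus. In the embryos the median sum lay between 1.27 and 2.62. The second exception is that 6 leukocyte markers had a median sum of 5.79 in Cumulus (brightest probe *Lyz2*), against 1.25 and 0.95 in Spi-C 1.0 and Spi-C 0.1, 0.28 in fertilized embryos, −0.08 and −0.37 in treated and untreated clones and −1.03 in oocytes. The third is the list of 4 endothelial markers. Its median sum was highest in OC at 2.55, against 1.75 in Cumulus and 0.23 to 0.85 in the embryos. The brightest probe in OC was *Kdr*, with means of 1.84 in OC and −3.94 in Cumulus. In OC, Cumulus, TSA(+) and both Spi-C groups 3 of the 4 were well above background on all arrays. In IVF and TSA(–) all 4 were. For red cells (2 markers, brightest probe *Hba-a1*) the median sum was −1.54 in Cumulus and −4.08 in OC. The part of any other cell type in the levels of the 10 genes was not tested, and fewer cells of a type and less RNA per cell cannot be told apart in pooled samples.

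**Figure D1:**
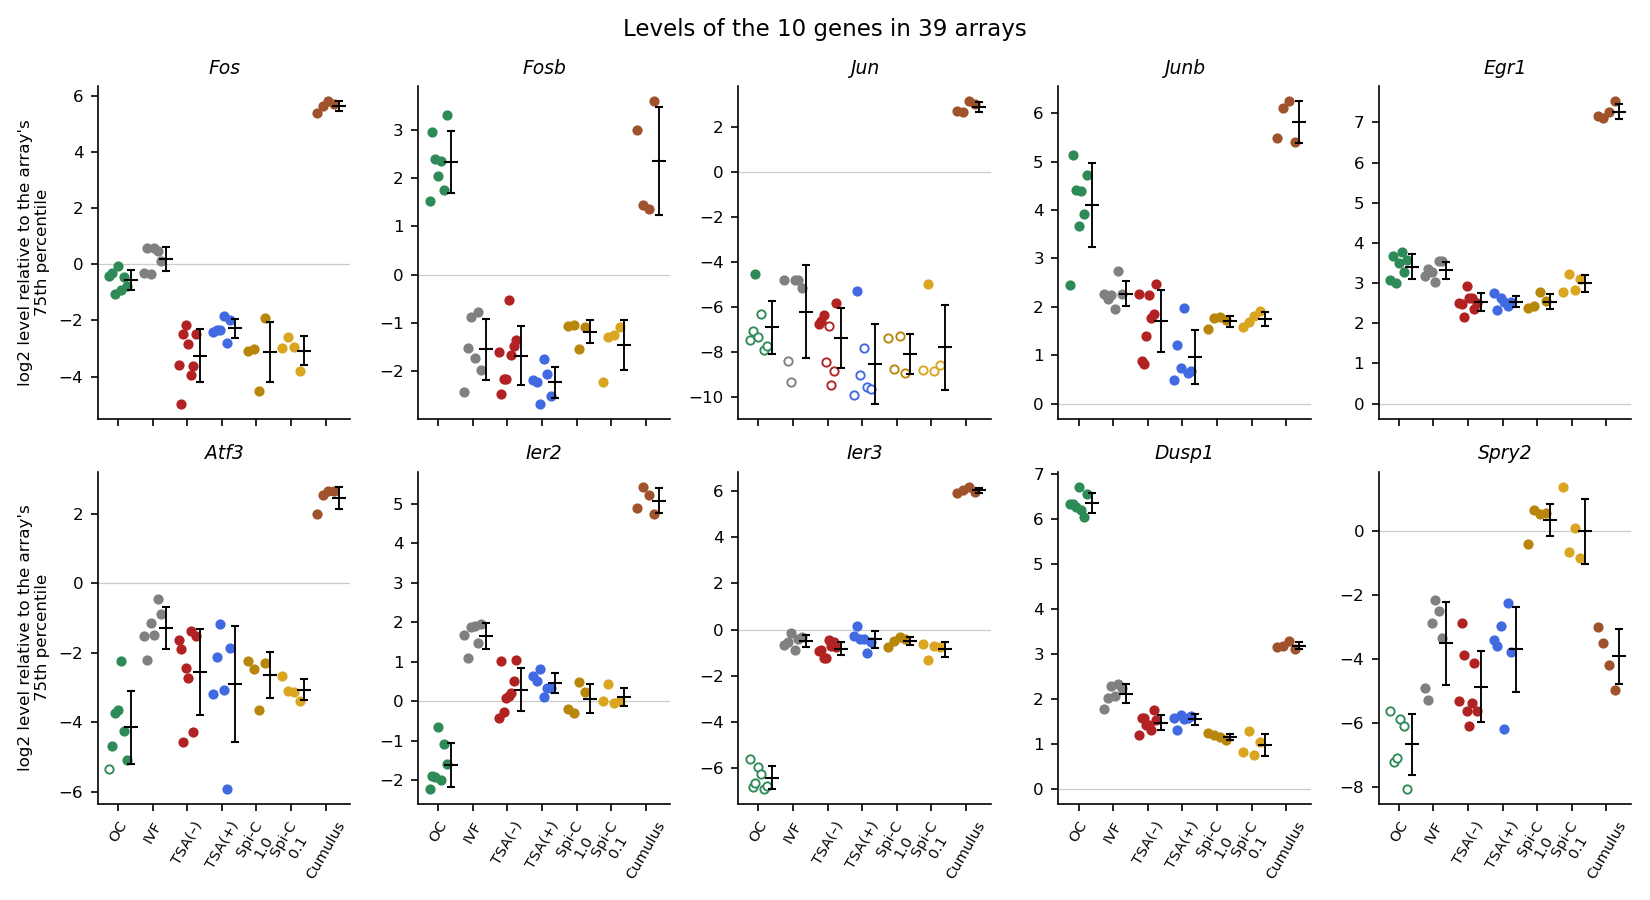
Level of each of the 10 genes (y axis, log2 relative to the 75th percentile of the array) on the 39 arrays by group (x axis). With arrays as points, open where the spot was not well above background, and black marks for the mean ± SD, Cumulus arrays sit above all others for 7 genes, OC arrays for *Dusp1* and the Spi-C arrays for *Spry2*, while *Fosb* of Cumulus overlaps OC.

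*Fos*, whose product is the founding partner of JUN in AP-1, had the largest difference of the 10 genes between fertilized embryos and untreated clones. Its level ran from −0.35 to 0.59 in IVF with a median of 0.29, and from −4.96 to −2.17 in TSA(–) with a median of −3.21. In TSA(+) it lay between −2.79 and −1.83 with a median of −2.33. All cloned embryos of both groups were thus below all fertilized ones. The Spi-C 1.0 arrays read −3.09, −3.02, −4.52 and −1.91, and the Spi-C 0.1 arrays −2.99, −2.58, −2.94 and −3.81, inside the span of the other clones. Oocytes ranged from −1.05 to −0.05 with a median of −0.46, overlapping IVF and lying apart from TSA(+), the next group down. The 4 Cumulus arrays, from cells of the kind whose nuclei the clones received, read 5.38, 5.63, 5.79 and 5.70, far above every other array.

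*Fosb*, a close relative of *Fos*, took another course. Oocytes held it at 1.53 to 3.32 (median 2.35), while IVF embryos had −2.43 to −0.78 (median −1.64), TSA(–) −2.48 to −0.52 (median −1.64) and TSA(+) −2.68 to −1.76 (median −2.21). The Spi-C 1.0 arrays read −1.07, −1.05, −1.54 and −1.08, and the Spi-C 0.1 arrays −2.24, −1.29, −1.26 and −1.09. Each 2-cell group therefore overlapped the next in order. The Cumulus arrays were uneven, at 3.01, 1.45, 1.35 and 3.60, and overlapped the oocytes, with a mean of 2.35 ± 1.13 (SD, n = 4) against 2.33 ± 0.64 (n = 7).

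*Jun*, the DNA-binding partner of FOS, was near the detection limit outside cumulus cells. It was well above background on 4 of 4 Cumulus arrays, 4 of 6 IVF, 4 of 8 TSA(–), 1 of 7 OC, 1 of 6 TSA(+), 1 of 4 Spi-C 0.1 and none of 4 Spi-C 1.0 arrays. The Cumulus arrays read 2.71, 2.66, 3.15 and 3.04. Means elsewhere ran from −8.52 ± 1.76 in TSA(+) (SD, n = 6) to −6.20 ± 2.07 in IVF (n = 6), and every group overlapped its neighbour in that order, so no order among the oocytes and embryos can be read.

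*Junb* was measured on all arrays by both of its probes, and the probes put oocytes and fertilized embryos in opposite order. On the brighter probe, OC ran from 2.46 to 5.14 (median 4.40), IVF from 1.96 to 2.74 (median 2.25), TSA(–) from 0.81 to 2.48 (median 1.81) and TSA(+) from 0.49 to 1.97 (median 0.71). On the second, OC ran from −4.04 to −2.81 (median −3.52), IVF from 0.63 to 1.58 (median 0.80) and TSA(–) from −1.85 to 0.45 (median −1.50), with a TSA(+) mean of −1.58 ± 0.43 (SD, n = 6). OC was thus second highest on one, overlapping IVF, and lowest on the other, apart from all groups. In the Cumulus arrays the brighter probe read 5.49, 6.11, 6.25 and 5.40 and the second 6.50, 7.08, 7.37 and 6.36, highest of all groups on both. The Spi-C arrays kept to a narrow band, with the brighter probe at 1.54, 1.76, 1.79 and 1.72 for Spi-C 1.0 and at 1.58, 1.69, 1.81 and 1.92 for Spi-C 0.1. Their second probe read −1.66, −1.47, −1.69 and −1.41, and −1.22, −1.22, −1.62 and −1.51. Where each probe lies in the transcript was not tested.

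*Egr1* encodes a zinc finger factor of the early growth response family. Levels in OC (2.99 to 3.78, median 3.50) and IVF (3.02 to 3.55, median 3.31) overlapped. Both cloned groups lay lower, TSA(–) at 2.15 to 2.93 (median 2.51) and TSA(+) at 2.34 to 2.75 (median 2.53), and neither overlapped IVF. The Spi-C 0.1 arrays read 2.79, 3.23, 2.84 and 3.1 and the Spi-C 1.0 arrays 2.37, 2.44, 2.79 and 2.56, so that the groups met without overlap. Cumulus cells stood alone at 7.17, 7.10, 7.27 and 7.53.

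*Atf3*, a stress-induced factor of the ATF and CREB family, varied widely between arrays of a group. OC ran from −5.34 to −2.24 (median −4.24; well above background on 6 of 7 arrays), IVF from −2.21 to −0.46 (median −1.31), TSA(–) from −4.55 to −1.36 (median −2.16) and TSA(+) from −5.92 to −1.17 (median −2.59). Among the Spi-C arrays it read −2.22, −2.45, −3.63 and −2.28 at 1.0 mg/ml and −2.65, −3.10, −3.12 and −3.37 at 0.1 mg/ml. Every neighbour in the order from IVF down to OC overlapped the next. The Cumulus arrays, at 2.00, 2.56, 2.67 and 2.65, did not overlap any group.

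*Ier2*, an immediate early gene whose product moves to the nucleus, had its highest levels in cumulus cells, at 4.91, 5.44, 5.23 and 4.75. IVF followed at 1.1 to 1.95 (median 1.78), apart from every cloned group. The clones overlapped one another, with TSA(–) at −0.41 to 1.05 (median 0.18), TSA(+) at 0.10 to 0.81 (median 0.43), Spi-C 1.0 at −0.18, −0.29, 0.50 and 0.25, and Spi-C 0.1 at 0.02, 0.44, −0.03 and 0.01. Oocytes were lowest, at −2.22 to −0.66 (median −1.88).

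The second *Ier2* probe was dimmer and ranked the groups otherwise. It was well above background on 25 of 39 arrays, namely on all 12 Spi-C and Cumulus arrays, 5 of 6 IVF, 3 of 8 TSA(–), 5 of 6 TSA(+) and none of 7 OC arrays. Its Spi-C 1.0 levels were −2.0, −0.98, −0.89 and −0.91, its Spi-C 0.1 levels −0.29, −2.21, −1.44 and −2.24, and its Cumulus levels −2.75, −2.82, −3.07 and −3.35. All these exceeded the means of −5.18 in TSA(+), −5.28 in IVF, −7.18 in TSA(–) and −7.21 in OC.

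*Ier3*, an immediate early gene linked to cell survival, was not well above background on any of the 7 OC arrays. It was well above background on all others and nearly level among the embryos, with IVF at −0.89 to −0.15 (median −0.47), TSA(–) at −1.24 to −0.47 (median −0.82) and TSA(+) at −1.01 to 0.14 (median −0.41). The Spi-C 1.0 arrays read −0.74, −0.49, −0.33 and −0.43 and the Spi-C 0.1 arrays −0.63, −1.34, −0.73 and −0.74, and all 5 embryo groups overlapped their neighbours in order. Cumulus arrays read 5.93, 6.05, 6.20 and 5.95.

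*Dusp1*, a phosphatase that switches off MAP kinases, was higher in oocytes than in any other group. OC ran from 6.04 to 6.71 (median 6.33), above Cumulus at 3.16, 3.18, 3.29 and 3.11, which lay above IVF at 1.78 to 2.33 (median 2.15). The clones were lower again, TSA(+) at 1.32 to 1.64 (median 1.57), TSA(–) at 1.20 to 1.75 (median 1.48), Spi-C 1.0 at 1.24, 1.19, 1.15 and 1.08 and Spi-C 0.1 at 0.83, 1.29, 0.76 and 1.04. The first 3 groups in that order were apart from all others, and each cloned group overlapped the next.

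*Spry2*, an inhibitor of signalling from receptor tyrosine kinases, was highest in the Spi-C embryos. The arrays at 1.0 mg/ml read −0.40, 0.68, 0.53 and 0.57 and those at 0.1 mg/ml 1.40, −0.64, 0.09 and −0.84. No other array reached these levels, with IVF at −5.27 to −2.16 (median −3.10), TSA(+) at −6.18 to −2.24 (median −3.50) and TSA(–) at −6.10 to −2.86 (median −5.35). The Cumulus arrays, read with the same scanner model and software version on another slide and day, stood at −2.99, −3.49, −4.18 and −4.98 and overlapped IVF and both TSA groups. In oocytes the gene was not well above background on any of 7 arrays, and 1 of them had no value because its spot had been marked as an outlier. Set side by side, the second *Ier2* probe and *Spry2* were both highest in the Spi-C arrays, and among those 8 the array with the highest *Spry2* level, Spi-C 0.1 replicate 1 at 1.40, also had the highest second *Ier2* value, at −0.29.

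**Figure D2:**
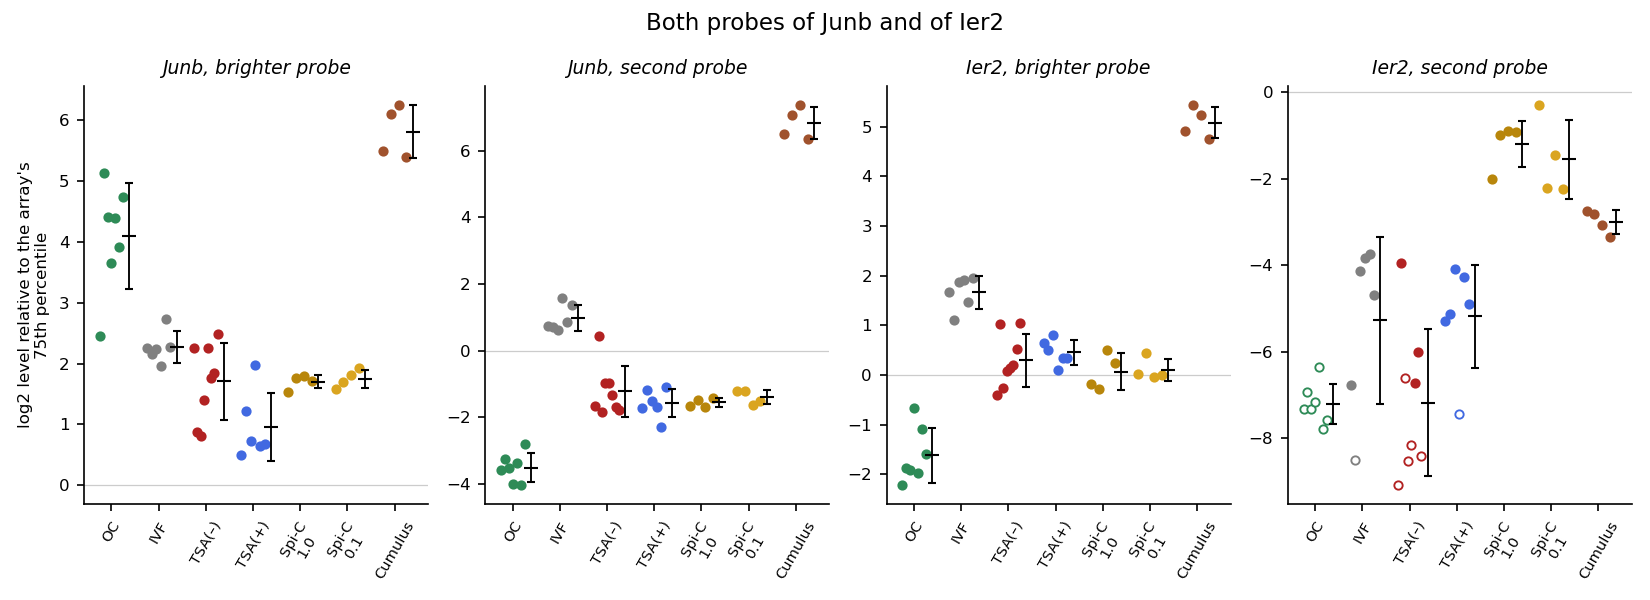
Levels of the brighter and second probes of *Junb* and *Ier2* (y axis, log2 relative to the 75th percentile of the array) by group (x axis), with open points where a spot was not well above background and black marks for the mean ± SD. The *Junb* probes put OC and IVF in opposite order, with OC medians of 4.40 and −3.52.

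Differences between groups below are log2 differences with a standard error from limma, a linear model fitted to all probes with a shared estimate of the spread. A comparison of groups that do not overlap means that every array of one lies above every array of the other. Beside each such count stands the share of all 39517 tested probes that did the same. As the levels themselves chose the genes, nothing is read from the count. Several comparisons share arrays, IVF with both TSA groups and TSA(–) with Cumulus and Spi-C NT, so their values stand side by side and are not independent.

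Fertilized 2-cell embryos were compared with unfertilized oocytes to see how the stored transcripts give way to embryonic ones. *Dusp1* differed by −4.22 (SE 0.13), 18.7-fold lower in IVF, or by −2.34 with quantile normalization, and *Fosb* by −3.89 (SE 0.36). *Ier2* was higher by 3.28 (SE 0.25) and *Atf3* by 2.86 (SE 0.61), or 1.24 after another background correction (normexp), which adds 50 units to each intensity. *Ier3* was at least 26.8-fold higher in IVF. Such a bound sets the mean of the bright group against the mean of the dim group, taken per array as the higher of the dim probe's own signal and the lowest signal among probes well above background. *Spry2* was at least 3.20-fold higher by the same bound. Here and below such bounds hold for the processed intensities only, and values after normexp can fall below them. After normexp the difference was 2.02 for *Ier3* and −0.04 for *Spry2*.

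In all, 4 genes lay wholly higher in IVF than in OC and 2 wholly lower, where 18.5% and 33.3% of all probes did. *Fos* (0.75, SE 0.32), *Jun* (0.69, SE 0.80; −1.01 with normexp), *Junb* (−1.83, SE 0.34; 1.33 with all probes averaged) and *Egr1* (−0.09, SE 0.15) overlapped. *Egr1* ran from −0.77 when arrays were scaled to their medians to 1.06 with quantile normalization. *Fos* differed by 0.07 with the former and *Junb* by −0.55 with the latter. The second *Junb* probe was higher in IVF by 4.49 (SE 0.30), without overlap. The median over the 10 genes was 0.72, against −0.87 over all probes. It was 0.041 with arrays scaled to their medians, 0.0054 with normexp and 1.23 with quantile normalization, where the median over all probes moved too, to −1.55, −1.27 and −0.29.

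The oocyte and IVF arrays shared 2 slides and 4 scan days. Over the 4 days, *Dusp1* differed by −4.54 to −3.98, *Fosb* by −5.39 to −3.41, *Ier2* by 3.08 to 3.65 and *Ier3* by 5.51 to 6.12. *Junb* ran from −2.88 to −1.64 on its brighter probe and from 3.97 to 5.30 on its second, so the opposite signs recurred on each day. *Atf3* differed by 0.97 to 3.49 over the days but by 0.04 and 2.51 on the slides, and *Spry2* by 2.30 to 4.78 and by 0.84 and 5.43. Since *Ier3* and *Spry2* were not well above background on any OC array, the sizes given for them here depend on how low intensities were set. With the slide or the day as a fixed block, the median of the 10 genes was 0.73 or 0.66.

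Cumulus cells were set against oocytes. *Fos* was higher in Cumulus by 6.19 (SE 0.36) or 73.2-fold, *Egr1* by 3.86 (SE 0.16) or 14.5-fold, *Ier2* by 6.70 (SE 0.28) and *Atf3* by 6.61 (SE 0.69). *Ier3* was at least 2485-fold higher, with a difference of 8.43 after normexp. *Jun* lay wholly higher, but only 1 oocyte array of 7 measured it, and the size depended on how low intensities were set (9.79, or 5.59 after normexp). *Dusp1* was the only gene of the 10 that lay wholly lower, by a difference of −3.15 (SE 0.14), 8.90-fold, and it was lower under all 5 scalings tried, by −1.34 with quantile normalization. *Junb* was higher by 1.71 (SE 0.38), or 6.03 with all probes averaged. *Fosb* differed by 0.02 (SE 0.41), with −0.00 on the authors' processed values. *Spry2* was at least 2.43-fold higher, with a difference of −0.28 after normexp. Counted together, 8 genes were wholly higher and 1 wholly lower, where 20.9% and 44.3% of all probes were, and the median of the 10 was 5.02 against −1.14 over all probes. No slide or day held both groups.

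Untreated clones were compared with fertilized embryos to find where cloning leaves expression apart from fertilization. *Fos* differed by −3.44 (SE 0.31), 10.9-fold lower in TSA(–). *Ier2* differed by −1.37 (SE 0.24), *Egr1* by −0.80 (SE 0.14) and *Dusp1* by −0.65 (SE 0.12), or 2.59-fold, 1.74-fold and 1.56-fold lower. These 4 lay wholly below IVF, where 8.15% of all probes did, and none of the 10 lay wholly above, where 6.67% did. The other 6 overlapped and ranged from *Spry2* at −1.36 (SE 0.59) to *Fosb* at −0.13 (SE 0.35). All 10 differences were below 0, with a median of −0.99 against −0.04 over all probes (−0.69 against −0.21 with normexp), and all 10 were below 0 under each of the 5 scalings. *Fosb* was above 0 with the slide (0.07) or the day (0.12) as a fixed block and without either of 2 IVF arrays (0.01 and 0.03). On its second probe *Junb* also lay wholly below IVF, by −2.20 (SE 0.29), whereas the second *Ier2* probe overlapped IVF at −1.91 (SE 0.70).

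TSA(–) and IVF shared 3 slides and 4 days. *Fos* differed by −4.66 to −2.89 across the days, *Ier2* by −1.96 to −0.65, *Egr1* by −1.19 to −0.33 and *Dusp1* by −0.76 to −0.20. On their brighter or only probe these 4 genes were below 0 on every slide and day. The second *Ier2* probe ran from −2.90 to 2.83 over the slides, above 0 on 2 of 3, and from −4.29 to 2.83 over the days. Of the 10 genes, 7 were below 0 on every day and 4 on every slide. The median over the genes was −0.65 with the slide as a fixed block and −0.85 with the day.

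The clones treated with trichostatin A were compared with the same IVF arrays. *Fos* differed by −2.46 (SE 0.33), 5.51-fold lower, *Ier2* by −1.21 (SE 0.26), *Egr1* by −0.78 (SE 0.15) and *Dusp1* by −0.57 (SE 0.13; −0.37 with median scaling). The same 4 genes lay wholly below IVF, where 11.2% of all probes did, and none wholly above, where 8.92% did. *Ier3*, at 0.08 (SE 0.21), was the only gene above 0, and *Spry2*, at −0.19 (SE 0.64), reached 0.01 with median scaling and with quantile normalization and 0.31 without 1 TSA(+) array. *Jun*, at −2.31 (SE 0.83) with overlap, ran from −2.96 to −0.62 over the alternatives, so no order between it and *Fos* can be read. The median was −0.99 against −0.21 over all probes, and −0.70 against −0.23 with normexp. On its second probe *Ier2* differed by 0.09 (SE 0.75), with overlap, and *Junb* by −2.56 (SE 0.31), without.

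TSA(+) and IVF shared 3 slides and 3 days. Across the days *Fos* differed by −2.79 to −1.82, *Ier2* by −1.37 to −1.06, *Egr1* by −1.0 to −0.52 and *Dusp1* by −0.77 to −0.21. Of the 10 genes, 6 were below 0 on every day and 7 on every slide. The median of the 10 genes was −1.05 with the slide and −1.07 with the day as a fixed block.

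Treated and untreated clones were compared directly to see what trichostatin A changed. All 10 genes overlapped, so 0 were wholly higher or lower, where 0.736% and 0.752% of all probes were. *Fos* was higher in TSA(+) by 0.98 (SE 0.31, 95% interval 0.35 to 1.60), and *Ier3* by 0.42 (SE 0.20). *Junb* differed by −0.76 (SE 0.33), *Spry2* by 1.17 (SE 0.59), *Jun* by −1.14 (SE 0.77), *Fosb* by −0.55 (SE 0.35) and *Atf3* by −0.34 (SE 0.59). After normexp the difference was 0.70 for *Spry2* and −0.09 for *Jun*. The *Jun* probe was well above background on only 1 of 6 TSA(+) and 4 of 8 TSA(–) arrays. *Atf3* turned to 0.27 without TSA(+) replicate 5. The second *Ier2* probe, measured on 5 of 6 TSA(+) and 3 of 8 TSA(–) arrays, was higher by 2.0 (SE 0.70), from −2.41 to 3.58 over the days and −1.34 on the shared slide, while the brighter one differed by 0.16 (SE 0.24). *Egr1* was nearly level at 0.01 (95% interval −0.28 to 0.31), with a sign that changed with the scaling, as was *Dusp1* at 0.08 (−0.17 to 0.32). *Ier2* on its brighter probe, *Egr1* and *Dusp1* were below 0 with the slide or the day as a fixed block. The median was 0.05 against −0.10 over all probes, 0.23 against 0.08 with arrays scaled to their medians, and −0.20 or −0.10 with the slide or the day as a fixed block. On the 3 shared days *Fos* differed by 0.10 to 2.84 and *Ier3* by 0.07 to 0.52, and on the 1 shared slide, with 1 array of each group, by 2.55 and 0.58. *Junb* and *Spry2* changed sign between days, from −1.44 to 0.36 and from −1.93 to 2.94, and differed by −0.38 and −0.54 on the slide.

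**Figure D3:**
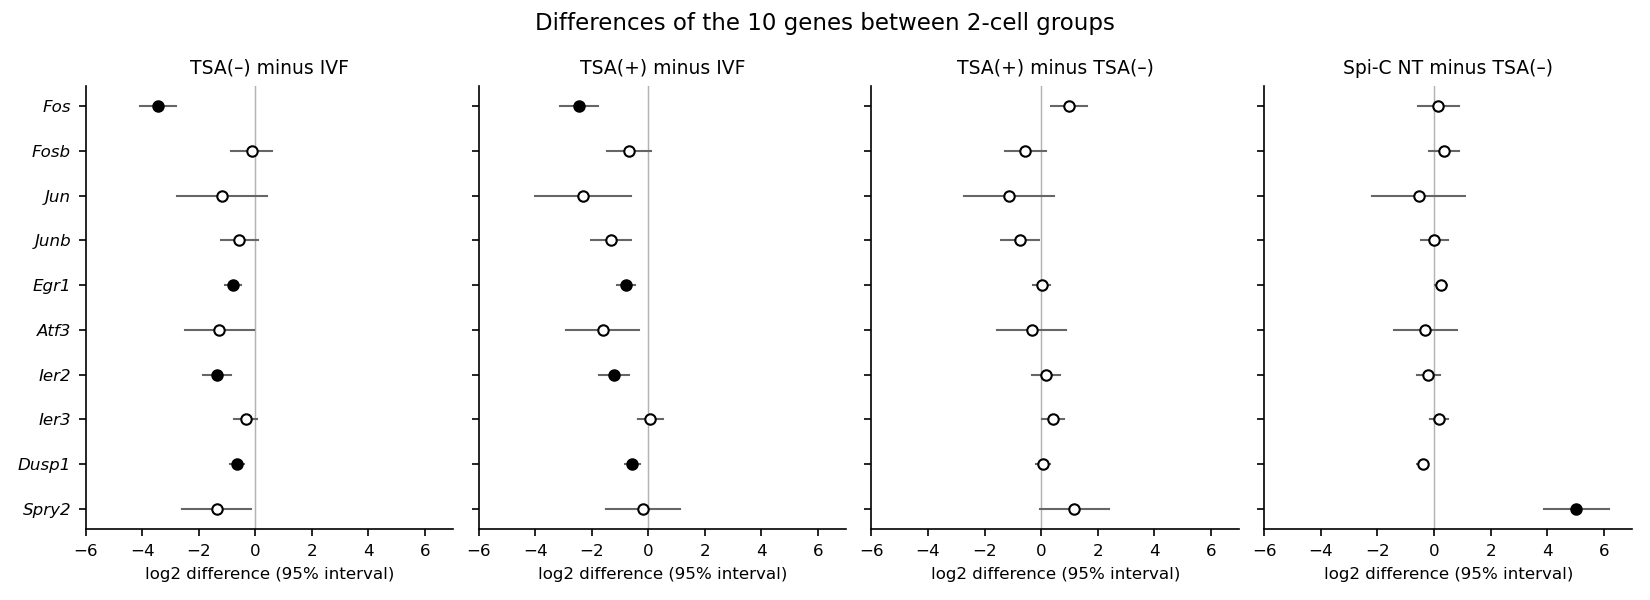
Log2 differences of the 10 genes (x axis) with 95% intervals from limma in 4 comparisons, with filled points where the groups do not overlap. *Fos*, *Egr1*, *Ier2* and *Dusp1* lie below 0 in both comparisons with IVF, and *Spry2* stands at 5.04 in Spi-C NT minus TSA(–), where the groups differ in scanner, software, slide and day.

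Cumulus cells were also set against the untreated clones made from such cells, which asks how much of the donor pattern is seen at the 2-cell stage. *Fos* was 471-fold higher in Cumulus, a difference of 8.88 (SE 0.35). *Jun*, well above background on 4 of 8 clone arrays, was higher by 10.27 (SE 0.88), or 7.13 after normexp. *Ier3* was higher by 6.88 (SE 0.22), *Atf3* by 5.02 (SE 0.67) and *Ier2* by 4.79 (SE 0.27). *Egr1* (4.74, SE 0.16), *Junb* (4.10, SE 0.37), *Fosb* (4.04, SE 0.40) and *Dusp1* (1.71, SE 0.14; 2.58 with median scaling) were also wholly higher, and *Spry2* overlapped at 0.95 (SE 0.67). That made 9 wholly higher and 0 wholly lower, where 22.1% and 26.6% of all probes were. The median was 4.77 against −0.11 over all probes, or 5.63 against 0.76 with median scaling, and all 10 were above 0 under each of the 5 scalings. The groups shared no slide or day.

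The embryos given Spi-C mRNA were compared with untreated clones. No group had a control injection, so the factor cannot be told apart from the injection of mRNA itself. *Spry2* was higher by 5.04 (SE 0.55, 95% interval 3.90 to 6.17), which is 32.8-fold, and was the only gene of the 10 whose groups did not overlap on its brighter or only probe, where 5.42% of all probes were wholly higher and 4.17% wholly lower. Its difference lay between 3.91 and 5.23 under the 5 scalings. *Dusp1* differed by −0.40 (SE 0.10) and *Egr1* by 0.24 (SE 0.11), with overlap. The *Egr1* difference was 0.05 with arrays scaled to their medians. Its mean level was 2.99 in Spi-C 0.1 and 2.54 in Spi-C 1.0, against 2.52 in TSA(–). The other 7 ran from −0.55 for *Jun* to 0.36 for *Fosb*, and *Fos*, *Ier3* and *Junb* changed sign with the scaling. The second *Ier2* probe was higher by 5.81 (SE 0.71), also without overlap, though only 3 of 8 TSA(–) arrays had measured it, while the brighter one differed by −0.21 (SE 0.19). The median was 0.08 against 0.15 over all probes, and −0.11 against −0.04 with arrays scaled to their medians. The groups shared no slide, day or scanner model.

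Between the 2 concentrations of Spi-C mRNA, *Egr1* differed by −0.45 (SE 0.16), lower at 1.0 mg/ml, and by −0.61 and −0.29 within the 2 slides. It was the only gene of the 10 whose groups did not overlap, so 0 were wholly higher and 1 wholly lower, where 1.84% and 1.52% of all probes were. *Spry2* differed by 0.34 (SE 0.78), from −0.24 to 0.92 within slides. The median was 0.07 against 0.02 over all probes, or 0.0019 against −0.05 with median scaling, with medians of −0.11 and 0.25 within the slides.

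Around the 10 genes stand 108 others of the same response, in 5 lists, of which 104 could be tested. They comprise immediate early transcription factors (24 tested of 25), other immediate early genes (25), feedback regulators (18 of 19), upstream signalling from EGF-like ligands to the MAP kinases (26), and the ternary complex, CREB and AP-1 partners (11 of 13). Here a gene is called when its limma p-value, adjusted by Benjamini and Hochberg over all 39517 probes, is under 0.01. Each counts through its brightest probe, whereas the shares of all probes include dim ones. Of probes well above background on all arrays of at least 1 group, 26.0% were called in TSA(–) minus IVF. In TSA(+) minus IVF it was 26.3% and in Spi-C NT minus TSA(–) 28.4%. The 104 genes had 24.0%, 26.0% and 21.2% in the same order. For IVF or Cumulus minus OC and Cumulus minus TSA(–) it was 72.1%, 78.1% and 71.9%, against 71.2%, 83.7% and 73.1% of the genes. The genes named had groups without overlap unless it is said that they overlapped.

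Between oocytes and fertilized embryos 36 of these genes were called higher and 38 lower in IVF, where 23.4% and 42.6% of all probes were. The 74 are 71.2% of the 104, near the 66.0% of all probes called in either direction. The split moved to 28 and 51 with arrays scaled to their medians (17.9% and 55.3% of all probes), and to 42 and 25 with quantile normalization (25.5% and 33.1%). The list median was −0.13. *Ier5*, an immediate early gene related to *Ier2*, rose (adjusted p = 1.36e-22), but only 1 of 7 OC arrays measured it, and the size was 10.34 on the processed intensities and 6.81 after normexp. *Klf6*, a zinc finger factor, rose at least 117-fold on the brighter of its 2 probes, and the phosphatase *Dusp4* at least 71.8-fold. Neither of these probes was well above background in oocytes. The kinase *Araf* rose by 5.94. After normexp these 3 differed by 4.28, 3.47 and 3.94. Oocyte transcripts that fell were *Nab2*, a co-repressor of EGR factors (−5.10), the G protein regulator *Rgs2* (−4.91, or −2.74 with quantile normalization), *Dusp8* (−3.83, or −2.40 after normexp, measured on 5 of 6 IVF arrays) and *Cebpb* (−3.42, or −2.06 with all probes averaged). With the slide as a fixed block 68 genes were called, and 71 with the day, where 56.3% and 64.5% of all probes were.

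Among feedback regulators 6 rose and 8 fell from OC to IVF (median −1.23), among immediate early transcription factors 9 rose and 5 fell (median 0.28), and among other immediate early genes 11 rose and 8 fell (median 0.74). Upstream signalling had 6 up and 11 down (median −0.20) and the partners 4 up and 6 down (median −1.44). Of all probes, 23.4% were called higher and 42.6% lower, and nothing is read from the counts by list.

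Between Cumulus and OC, 15 of the transcription factors were higher in Cumulus and 4 lower (median 2.60), and of the other immediate early genes 18 were higher and 2 lower (median 3.55). Of the feedback regulators 4 were higher and 11 lower (median −2.07), and in all 52 were higher and 35 lower (median 0.90), where 23.5% and 44.1% of all probes were called. The brighter of 2 *Klf6* probes was at least 3703-fold higher in Cumulus, and *Ccn2*, a matricellular protein, at least 939-fold. The *Klf6* bound is for that probe alone, and the difference was 8.75 when all its probes were averaged. For *Ccn2* it was 7.02 after normexp. The orphan receptor *Nr4a1* was higher by 11.52 (SE 0.43, adjusted p = 2.03e-20), or 9.36 after normexp, and *Ier5*, measured on 1 of 7 OC arrays, by 11.12, or 7.53 after normexp. On the oocyte side stood the phosphatases *Dusp7* (−11.87, SE 0.18, adjusted p = 9.97e-30) and *Dusp14* (−11.01), with −9.30 and −8.73 after quantile normalization. *Egf* differed by −9.22, or −7.31 with quantile normalization, measured on 3 of 4 Cumulus arrays. The brighter of 2 *Spry4* probes, not well above background on any Cumulus array, was at least 220-fold lower there. That bound is for this probe alone, and the difference was −4.75 when all *Spry4* probes were averaged. Upstream signalling had 10 higher and 12 lower and the partners 5 and 6.

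In TSA(–) against IVF, 11 were called higher and 14 lower, where 8.58% and 10.2% of all probes were, with a list median of −0.13. The feedback phosphatases *Dusp6* (−2.29, SE 0.21, adjusted p = 1.63e-09) and *Dusp4* (−2.28), the matricellular *Ccn1* (−2.29, with overlap) and the factor *Cebpd* (−2.19) fell. *Crem*, a cyclic AMP response factor, rose by 1.97 (SE 0.33, adjusted p = 3.51e-05). *Creb1*, of the same family, rose by 1.38 (SE 0.19, adjusted p = 1.45e-06, with 0.0311, the highest over the alternatives, when all its probes were averaged). The AP-1 partners *Batf3* and *Batf* rose by 1.75 and 1.84, the latter with overlap and with an adjusted p of 0.0239, its highest over the alternatives, when the slide was a fixed block. Feedback regulators had 1 gene higher and 4 lower, transcription factors 1 and 3, and other immediate early genes 3 and 7. The 2 called in upstream signalling and the 4 among the partners were higher. With normexp the split was 11 higher and 23 lower, where 9.86% and 16.5% of all probes were called. A fixed block for the slide left 18 calls, 8 of them higher and 10 lower, and one for the day left 25, where 10.3% and 16.2% of all probes were called.

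In TSA(+) against IVF, 12 were called higher and 15 lower, where 8.02% and 10.8% of all probes were, and the split turned to 17 and 10 when arrays were scaled to their medians (10.6% and 7.23% of all probes). *Crem* (2.48), *Batf* (1.84), *Batf3* (1.57) and the pseudokinase *Trib1* (1.79, SE 0.22, adjusted p = 3.36e-07) rose, all wholly above IVF. *Sik1*, a salt-inducible kinase, fell, but only 1 of 6 TSA(+) arrays measured it, and the difference was −3.90 on the processed intensities and −0.98 after normexp. *Ccn1* (−2.37), *Cebpd* (−2.34) and *Dusp6* (−2.12, SE 0.22, adjusted p = 2.59e-08) fell. By list, transcription factors had 2 higher and 3 lower, other immediate early genes 3 and 8, feedback regulators 1 and 2, and upstream signalling 2 and 2. The 4 called among the partners were higher. With the slide as a fixed block 23 were called and with the day 25, where 15.2% and 17.4% of all probes were. The list median was −0.20.

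Between treated and untreated clones limma called 0 of the 104 genes, where 0.0506% of all probes were called higher and 0.0936% lower. At an unadjusted p under 0.05 there were 20 (19.2%), where 16.2% of all probes were. After normexp limma called 5 at an adjusted p under 0.01, all higher in TSA(+), where 0.524% of all probes were called higher and 0.453% lower. The one-way test with Tukey's comparison named in the study's methods called 4 (3 higher and 1 lower in TSA(+)), or 3.85%, where it called 1.98% of all probes. The list median was 0.06.

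Cumulus against TSA(–) gave 50 higher and 26 lower, where 24.5% and 30.4% of all probes, 54.9% in sum, were called. With arrays scaled to their medians it was 68 and 20, against 39.5% and 21.6% of all probes. The 20 called among the other immediate early genes were all higher in Cumulus (median 2.98), and the transcription factors had 16 higher and 2 lower (median 2.55) and the feedback regulators 3 and 9 (median −1.03). Upstream signalling had 9 and 9 and the partners 2 and 6, and the median of all 104 was 0.83. *Nr4a1* (8.94, SE 0.42, adjusted p = 1.32e-17), the prostaglandin synthase *Ptgs2* (8.10) and the EGF-like ligands *Btc* (9.04, measured on 3 of 8 clone arrays) and *Ereg* (at least 71.0-fold, on none) were higher in Cumulus. *Dusp7* (−9.43), *Dusp14* (−8.75), *Il17rd* (at least 104.9-fold) and *Spry4* (at least 77.9-fold), all feedback regulators, were lower. The last 2 are given for the brighter of their 2 probes, which was not well above background on any Cumulus array. After normexp the difference was 6.85 for *Ptgs2*, 5.71 for *Btc*, 3.61 for *Ereg*, −3.86 for *Il17rd*, −3.78 for *Spry4* and −8.15 for *Dusp7*.

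In Spi-C NT against TSA(–), 11 were called in each direction, where 12.1% of all probes were called higher and 8.8% lower. The split was 3 higher and 21 lower with arrays scaled to their medians (7.19% and 12.8% of all probes) and 11 and 21 with normexp (10.4% and 31.9%). *Nab2* fell by 2.12 (SE 0.23, adjusted p = 1.00e-07), and *Dusp14* (−1.04, or −0.57 with all probes averaged), *Maff* (−0.92) and the kinase *Rps6ka5* (−1.13, with overlap) fell. *Jund*, a partner in AP-1, rose by 1.19 (SE 0.19, adjusted p = 2.29e-05). *Mrtfa*, a cofactor of SRF, was higher by 1.01 (SE 0.16, measured on 5 of 8 TSA(–) arrays) but differed by −0.09 after normexp, with its highest adjusted p over the alternatives, 0.302. *Id3* (0.81, or 0.51 after normexp) and *Araf* (0.78) overlapped, and with arrays scaled to their medians had their highest adjusted p over the alternatives, 0.0161 and 0.0263. By list, transcription factors had 2 higher and 3 lower, other immediate early genes 2 and 3, feedback regulators 1 and 3, and upstream signalling 4 and 2. The 2 called among the partners were higher. The list median was −0.06. Between the concentrations limma called 0 of the 104 genes, where 0.00506% of all probes were called higher and 0.0% lower. There were 2 at an unadjusted p under 0.05 and 0 by the methods' test, against 4.11% and 0.139% of all probes.

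The likeness of patterns was measured by Pearson correlation over the 39 arrays, on 1 of which *Spry2* had no value. The correlations were with 19236 probes well above background on at least 20 arrays. They are a description, since the groups differ and set most of each value. *Dusp1* was most like *Atp1b3* (r = 0.995) and *Spcs2* (0.993), *Ier3* like *Rpl8* (0.987) and *Eef1g* (0.984), and *Fosb* like *Coa5* (0.969) and *Shisa5* (0.959). *Ier2* was most like the second *Junb* probe (0.963) and *Lamb2* (0.961), which puts another member beside it. *Egr1* went with *Atp6v0e2* (0.961) and *Col4a1* (0.960), *Fos* with *H2-Q2* (0.958) and *Tsen34* (0.942), and *Junb* with *Itm2b* (0.943) and *Nedd9* (0.937). Looser matches were *Spry2* with *Olfr1497* (0.939) and *Lrrc3b* (0.926), *Jun* with *Pcyox1* (0.906) and *Mgst1* (0.903), and *Atf3* with *Cdh5* (0.898) and the second *Junb* probe (0.894). *Jun* itself was well above background on only 15 of the 39 arrays, so most of its values here are near the detection limit.

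Promoters were read because 4 of the genes, *Fos*, *Dusp1*, *Ier2* and *Egr1*, lay lower together in both TSA groups than in IVF. RefSeq promoter sequences of assembly GRCm38.p6 were matched for 8 of the 10 genes. No sequence was matched for *Ier2* and *Egr1*, so the search covers only *Fos* and *Dusp1* of those 4 and does not address why they lay lower together. The 250 bases before each start were searched on both strands. The cyclic AMP response element TGACGTCA was found in 1 of the 8 and in 1.55% of 32851 promoters, its shorter form TGACGT, which the full element contains, in 3 and 6.47%, and the AP-1 variant TGACATCA in 1 and 2.93%. The TATA box TATAAA was found in 1 and in 12.4%. The AP-1 element TGANTCA (6.75% of promoters), the EGR element GCGTGGGCG (0.536%) and the CArG box (1.47%) were in none of the 8. A match is a run of letters and not a measured site.

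The 4 promoters with a match are printed from far to near the start, with capitals marking the matches. *Fos* (chr12:85473640-85473889, plus strand) holds TGACGT 66 to 61 bases and TATAAA 33 to 28 bases before the start. *Jun* (chr4:95052223-95052472, minus strand) holds TGACATCA 45 to 38 bases before it. *Atf3* (chr1:191183334-191183583, minus strand) has the short form on the opposite strand, read as ACGTCA, 8 to 3 bases before it. *Dusp1* (chr17:26508473-26508722, minus strand) holds TGACGT 191 to 186 bases and the full TGACGTCA 143 to 136 bases before it.
Fos: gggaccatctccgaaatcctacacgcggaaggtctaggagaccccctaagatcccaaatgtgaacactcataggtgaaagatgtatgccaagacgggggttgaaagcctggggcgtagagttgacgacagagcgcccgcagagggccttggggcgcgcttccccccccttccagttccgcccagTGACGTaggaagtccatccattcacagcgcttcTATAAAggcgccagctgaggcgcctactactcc
Jun: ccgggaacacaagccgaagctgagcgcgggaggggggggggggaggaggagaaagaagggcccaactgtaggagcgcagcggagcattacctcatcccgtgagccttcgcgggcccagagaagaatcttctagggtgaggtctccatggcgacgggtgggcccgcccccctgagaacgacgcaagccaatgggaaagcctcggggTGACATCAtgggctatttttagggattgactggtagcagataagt
Atf3: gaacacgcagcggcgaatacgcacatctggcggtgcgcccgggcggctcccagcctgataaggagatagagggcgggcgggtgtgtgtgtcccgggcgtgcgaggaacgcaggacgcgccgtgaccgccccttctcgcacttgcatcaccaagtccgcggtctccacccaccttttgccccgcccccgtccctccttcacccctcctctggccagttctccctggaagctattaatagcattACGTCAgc
Dusp1: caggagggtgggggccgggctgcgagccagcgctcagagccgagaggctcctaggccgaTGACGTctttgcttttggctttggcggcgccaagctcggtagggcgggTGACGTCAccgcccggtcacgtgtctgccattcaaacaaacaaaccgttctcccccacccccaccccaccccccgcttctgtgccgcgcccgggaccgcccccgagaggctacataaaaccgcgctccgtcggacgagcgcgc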

How the data were processed

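The deposited scanner files hold, for each spot of 39 arrays, a processed intensity that the authors had made with Agilent Feature Extraction (9.5.3.1 or 10.5.1.1 by the submitters' processing notes), background-subtracted and not normalized between arrays. A deposited table of log2 values was matched to these intensities scaled to the 75th percentile and centred per probe (lowest r over arrays 0.9997, largest median absolute difference 0.0386); the authors' values served as an alternative only.

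Intensities were put on the log2 scale and the 75th percentile of each array was subtracted. Outlier spots, 5238 in number, were dropped, which left 1820 probe values missing. Of 41174 probes, 23374 had a symbol; the 39517 with an intensity of at least 10 on at least 1 IVF or cloned array were tested, covering 16283 named genes. Each gene counts through its probe with the highest mean level. One fit took all groups except Spi-C NT, and another all 2-cell groups for the Spi-C comparisons, with limma 3.58.1 and statmod 1.5.0 in R 4.3.3, at a Benjamini-Hochberg adjusted p under 0.01, and tested on simulated data. Tables and figures used Python 3.11.15, numpy 2.4.6, pandas 2.3.3 and matplotlib 3.10.9.

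The members and lists were chosen with earlier results of these data known. Named were the 10 members, the 4 called list genes with the largest difference in each direction and comparison (every array of the group with more signal being well above background), the 2 probes most like each member, and cell type markers. Alternatives were other scalings (median, quantile, normexp with an offset of 50, the authors' values), no filter or a stricter one, groups compared alone, slide, scan day or replicate as a block, the methods' test, all probes averaged, an adjusted p under 0.05, a 2-fold minimum, leaving out each array and, chosen after seeing the data, the other probe of *Ier2* and *Junb*.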

Additional observations from a re-analysis of the deposited data

Results flagged for a closer look

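Of 84 groups of levels (12 probes in 7 groups of arrays), 11 held an array farther from the rest of its group than Dixon's 95% limit allows. The limit serves only to pick arrays to describe. Chance alone exceeds it in about 1 in 20 groups, the groups share arrays, and nothing is read from the count. The reasons for these values were not tested. Among the Spi-C 0.1 arrays, replicate 2 had the highest *Ier2* level (0.44, others −0.03 to 0.02), the lowest *Ier3* level (−1.34, others −0.74 to −0.63) and the highest *Jun* level (−4.95, others −8.81 to −8.55), being the only one of the 4 with *Jun* well above background.

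Among the Spi-C 1.0 arrays, replicate 1 was lowest for the second *Ier2* probe (−2.0, others −0.98 to −0.89) and for *Spry2* (−0.40, others 0.53 to 0.68). Replicate 3 of the same group was lowest for *Fosb* (−1.54, others −1.08 to −1.05) and *Atf3* (−3.63, others −2.45 to −2.22). Cumulus replicate 1 was lowest for *Atf3* (2.00, others 2.56 to 2.67).

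In the TSA groups, TSA(–) replicate 2 was highest for the second *Junb* probe (0.45, others −1.85 to −0.96). TSA(+) replicate 2 was lowest for *Dusp1* (1.32, others 1.56 to 1.64). TSA(+) replicate 4 was lowest for the second *Ier2* probe (−7.44, others −5.28 to −4.09), and its spot was not well above background.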

How the results depend on the processing

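Of 3114 values of single genes under an alternative, 2991 kept their sign and either their call or a place within the spread between replicates, 53 kept their sign and moved farther, 5 lost their call and 65 changed sign. The cause of these changes was not tested. Of the 65, 53 lay within the spread between replicates for groups that overlapped, and 4 concerned a called gene or groups without overlap. These 4 were *Spry2* in IVF minus OC (−0.038) and in Cumulus minus OC (−0.28) and *Mrtfa* in Spi-C NT minus TSA(–) (−0.092), all with normexp, and *Ier2* in TSA(+) minus IVF (0.094) on its other probe, an alternative chosen after seeing the data. The other 8, with overlap, moved beyond the spread. In IVF minus OC they were *Junb* (1.33 with all probes averaged, 4.49 on its other probe), *Jun* (−1.01 with normexp) and *Egr1* (1.06 with quantile normalization). In Spi-C NT minus TSA(–) they were *Ier2* (2.80 averaged, 5.81 on its other probe) and *Junb* (−0.25, other probe), and between the Spi-C concentrations *Ier2* (0.35, other probe).

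The median difference of the 10 genes in IVF minus OC, 0.72, was 0.041 with arrays scaled to their medians, 1.23 with quantile normalization, 0.0054 with normexp and 1.34 with the other probe of *Ier2* and *Junb*. In Cumulus minus OC, 5.02 became 5.46 with quantile normalization, 4.38 with normexp and 5.74 with all probes averaged. In TSA(–) minus IVF, −0.99 became −0.65 with the slide as a fixed block. In TSA(+) minus IVF, −0.99 became −0.70 with normexp and −0.73 with all probes averaged or with the other probes. In Cumulus minus TSA(–), 4.77 became 5.63 with median scaling.

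Of the 104 other genes, 27 were called in TSA(+) minus IVF (18.8% of all probes) and 41 at an adjusted p under 0.05 (28.9%). In TSA(+) minus TSA(–), 0 were called (0.144% of all probes), against 5 with normexp, all higher (0.977%), 4 with the methods' test (1.98%), 3 at an adjusted p under 0.05 (1.27%) and 20 at an unadjusted one (16.2%). In Spi-C NT minus TSA(–), 22 were called (20.9% of all probes), against 38 at an adjusted p under 0.05 (31.6%), 5 with a change of at least 2-fold (8.79%) and 12 with the replicate number as a block (13.4%). That block assumes that numbers pair samples, which the labels do not say. Over 97 same-numbered pairs of arrays the median r of residuals was −0.00191, with 1 pair over 0.1, so no pairing was seen.

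Leaving out each array in turn gave 70 to 74 calls in IVF minus OC, 86 to 88 in Cumulus minus OC, 24 to 26 in TSA(–) minus IVF, 23 to 26 in TSA(+) minus IVF, 74 to 77 in Cumulus minus TSA(–), 18 to 25 in Spi-C NT minus TSA(–), and by limma 0 in both other comparisons, which had 20 and 2 genes at an unadjusted p under 0.05 with all arrays and 4 and 0 by the methods' test. Of all 39517 probes, 25099 to 26106, 24934 to 26828, 6476 to 7080, 6396 to 7125, 20484 to 21555 and 7262 to 8311 were then called, in the same order. Both other comparisons had 22 to 93 for TSA(+) minus TSA(–) and 1 to 4 between the Spi-C concentrations. The median of the 10 genes then ran, in the same order, from 0.54 to 1.08 (without IVF replicate 3), 4.95 to 5.08, −1.12 to −0.82, −1.05 to −0.88, 4.70 to 4.82 and −0.10 (without TSA(–) replicate 2) to 0.15. In TSA(+) minus TSA(–) it ran from 0.02 (without TSA(+) replicate 1) to 0.13 (without TSA(+) replicate 5), and between the Spi-C concentrations from 0.0034 (without Spi-C 0.1 replicate 1) to 0.24 (without Spi-C 1.0 replicate 3).

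The slide or day as a fixed block could not be fitted for the Cumulus comparisons and Spi-C NT minus TSA(–), where no slide or day holds both groups. Signal over background limits *Jun*, well above background on 15 of 39 arrays, *Spry2* and *Ier3* in oocytes, and the second *Ier2* probe: their log2 values there depend on how the software sets low intensities. The lower 75th percentile of the oocyte arrays makes their levels rest on a dimmer reference. The replicates are separate pools by the study's design, and 4 arrays per Spi-C concentration and of Cumulus set wide intervals.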
